A study of Sus scrofa with 8 samples.

Results

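The circadian clock genes considered here were DBP, ARNTL, CLOCK, PER1, PER2, CRY1, NR1D1 and NR1D2, measured in pig liver on the Affymetrix porcine array. Members were taken as all probe sets whose array annotation gives exactly 1 of these 8 symbols. This left 4 probe sets of 3 genes (DBP with 1, ARNTL with 1, PER1 with 2) out of 23999 probe sets that are not controls, or 3 of the 6765 genes with a probe set of a single symbol. CLOCK, PER2, CRY1, NR1D1 and NR1D2 had no probe set with their symbol and were not analysed here. The livers came from 4 Korean native pigs (KNP), an indigenous breed, at 7 months of age, and 4 Yorkshire pigs (YS), a commercial breed, at 6 months, with 1 array per animal. All were untreated animals that the labels describe as raised alike, and RNA was taken from the end of the biggest liver lobe. Age differs with breed, so breed and age cannot be told apart. The sources used here do not give the clock time or the feeding state at sampling. With animals as replicates, 4 per breed, p-values measure the spread between these animals.

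In mammals, the circadian clock is a loop of transcription factors that runs in nearly every cell. ARNTL, also called BMAL1, pairs with CLOCK to activate genes that carry an E-box, among them the PER and CRY genes, whose proteins repress ARNTL and CLOCK, and NR1D1 and NR1D2, whose proteins repress ARNTL itself. DBP is a direct target of ARNTL and CLOCK and an activator of its own set of liver genes, and in rodent liver its transcript is known to peak when that of ARNTL is low. PER1 is in addition induced directly by hormones such as glucocorticoids. The transcripts of these genes therefore depend strongly on the hour at which a liver is taken.

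ARNTL varied more than 10-fold among the KNP livers, and DBP varied with it in the opposite direction, while the YS livers lay close together in both genes. The deposited value of a probe set is an intensity on a linear scale, which was analysed as log2(intensity + 16). Because probe sets differ in response, levels of different genes were not compared. No member passed the test between the breeds with all 8 arrays: of the 3 probe sets bright enough to be tested, 0 had an adjusted p under 0.05 with limma, against 1.03% of the 14399 probe sets tested (0.424% higher and 0.611% lower in KNP). Over all probe sets 61 of 149 calls were higher in KNP, but 9 of 13 after quantile normalization, 57 of 95 after median centring and 10 of 14 after cyclic loess. At an unadjusted p under 0.05 there were 2 of the 3, against 15.1% of all. None of the 4 member probe sets separated the breeds without overlap, where 9.68% of all tested probe sets did. In whole liver, fewer cells of a type and less RNA per cell cannot be told apart.

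ARNTL, the positive arm of the loop, had intensities of 94.9, 153, 256 and 979 in KNP replicates 1 to 4 and of 565, 725, 609 and 703 in YS replicates 1 to 4. KNP replicates 1, 2 and 3 thus lay below all YS livers, and KNP replicate 4 lay above all of them. KNP replicate 1 was under 97.8, the mean intensity at which a probe set was bright enough to be tested. The mean was 371 ± 411 in KNP and 650.3 ± 75.9 in YS (SD, n = 4 per breed). On the log2 scale the difference of KNP minus YS was −1.31 (SE 0.53, 95% interval −2.47 to −0.15), with a limma adjusted p of 0.275. Without KNP replicate 4 the difference was −1.94 and passed (limma adjusted p = 0.0267), where 0.813% of all probe sets passed (0.556% lower in KNP), so this 1 animal decided the call. Leaving out KNP replicate 1 gave −0.89 (adjusted p = 0.456 with limma).

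DBP, the output factor, had intensities of 2096, 1241, 753 and 547 in KNP replicates 1 to 4 and of 674, 606, 518 and 444 in YS replicates 1 to 4. KNP replicates 1, 2 and 3 lay above every YS liver, and KNP replicate 4 fell among the YS values. The mean was 1159 ± 689 in KNP and 560.5 ± 100.3 in YS (SD, n = 4 per breed). The log2 difference of 0.86 (SE 0.35, 95% interval 0.10 to 1.63) did not pass (limma adjusted p = 0.276). It ranged from 0.52 without KNP replicate 1 to 1.15 without KNP replicate 4, and no array left out gave a call.

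PER1, of the repressor arm, did not vary more in KNP than in YS. Its bright probe set had intensities of 2682, 1732, 2320.4 and 2227 in KNP replicates 1 to 4 and of 2781, 1626, 1764 and 1095 in YS replicates 1 to 4. The breeds overlapped widely, with the highest and the lowest value both in YS. The log2 difference was 0.36 (SE 0.25, 95% interval −0.20 to 0.92; limma adjusted p = 0.545), from 2240.4 ± 392 in KNP and 1816 ± 704 in YS (SD, n = 4 per breed). Without YS replicate 4, the lowest liver, it was 0.15, and without YS replicate 1, the highest, 0.59.

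The second PER1 probe set was dim and lay under the filter on low values. It had intensities of 80.3, 74.9, 19.8 and 60.1 in KNP replicates 1 to 4 and of 94.6, 53.2, 179 and 127 in YS replicates 1 to 4. Fitted without the filter its difference was −0.79 (SE 0.43, limma adjusted p = 0.460), opposite in sign to the bright one. Over the 8 arrays the PER1 probe sets had a Pearson correlation of −0.35, so they did not follow each other, and the statements on PER1 below use the bright one alone.

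**Figure D1:**
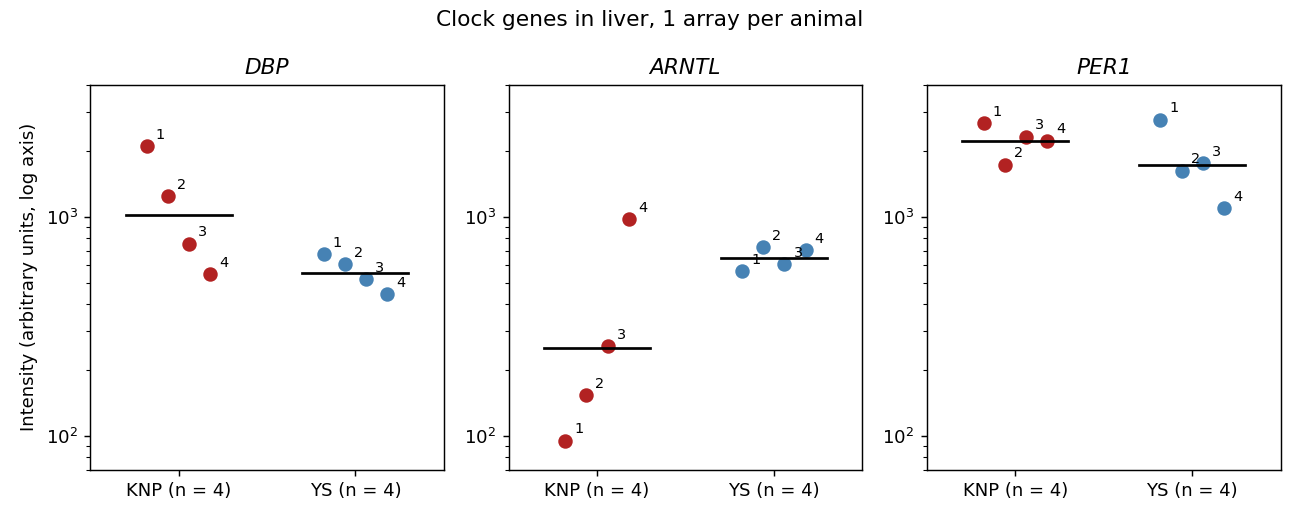
Intensity of DBP, ARNTL and the bright probe set of PER1 in each liver (log axis, arbitrary units), with the replicate number beside each point and the mean on the log2(intensity + 16) scale as a bar. ARNTL runs from 94.9 to 979 in KNP but only from 565 to 725 in YS; DBP spreads in KNP as well, and PER1 does not.

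The spread within a breed was compared after the values had been seen. From the lowest to the highest animal ARNTL differed 10.3-fold in KNP and 1.28-fold in YS, and DBP 3.83-fold and 1.52-fold. PER1 differed 1.55-fold in KNP and 2.54-fold in YS. The SD of the log2 values of ARNTL was 1.37 in KNP and 0.17 in YS, a ratio of 8.26, and a ratio at least as large was found in 0.965% of all tested probe sets. For DBP the SDs were 0.83 and 0.26, a ratio of 3.27, which 9.19% of all probe sets reached. An SD at least 4 times as large in KNP was found in 5.71% of all probe sets, ARNTL among them, and any larger SD in KNP in 59.7%.

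A two-sided permutation test of the absolute deviations from the breed median gave p = 0.0286 for ARNTL and for DBP (n = 4 per breed). This is the smallest p that 4 against 4 animals allow and was not adjusted for the number of probe sets. The breed medians were held fixed while the deviations were permuted, so the test is approximate. PER1 gave p = 0.286 in the same permutation test, with the wider spread in YS. Of all tested probe sets 6.54% reached the smallest p with the wider spread in KNP, against 2 of the 3 members. The spread of these 2 members had been seen before the test, and they were correlated at −0.93. They are therefore not separate results. With any 1 animal left out, the permutation p of ARNTL lay between 0.114 and 0.229 and that of DBP between 0.0857 and 0.343. These p-values cannot be set against 0.0286. In a breed of 3 animals the middle one deviates by 0, and the group sizes are unequal. Without YS replicate 1 the difference in mean deviation of ARNTL was larger, at 0.88, with a permutation p of 0.114. The difference in mean deviation of ARNTL, 0.82 in log2 units with all animals, was 0.29 without KNP replicate 4, and that of DBP went from 0.45 to 0.19 without KNP replicate 1.

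ARNTL and DBP moved in opposite directions over the 8 livers, most clearly within KNP. Their Pearson correlation over the 8 arrays was −0.93 (exact permutation p = 0.00104, adjusted p = 0.00312 over the 3 pairs of members). Spearman's rho was −0.81 (exact permutation p = 0.0218, adjusted p = 0.0653), which did not pass. The liver with the highest DBP, KNP replicate 1, had the lowest ARNTL, and KNP replicate 2 came second in both orders. KNP replicate 4, with the highest ARNTL, had a DBP level within the range of the YS livers. With each value taken as its deviation from the breed mean, the correlation was −0.89 (adjusted permutation p = 0.0202). KNP carried most of these deviations, with log2 SDs of 1.37 for ARNTL and 0.83 for DBP, against 0.17 and 0.26 in YS. Among the YS livers, replicate 2 had the highest ARNTL, at 725, and a DBP of 606, above YS replicates 3 and 4. The correlation within YS alone was not computed. Each animal left out in turn gave a correlation between −0.96 and −0.89, with adjusted permutation p from 0.00357 to 0.025.

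Without the 2 arrays farthest from the median of DBP, KNP replicates 1 and 2, the correlation was −0.69 over the 6 others (exact permutation p = 0.119) and no longer passed. With 6 arrays and a narrower range of DBP, this cannot show whether the call rests on those 2 livers. A correlation with ARNTL as low as that of DBP or lower was reached by 13 of the 14399 probe sets tested (0.0903%, DBP among them). Among 5422 other genes with a tested probe set, DBP had the third lowest correlation with ARNTL.

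**Figure D2:**
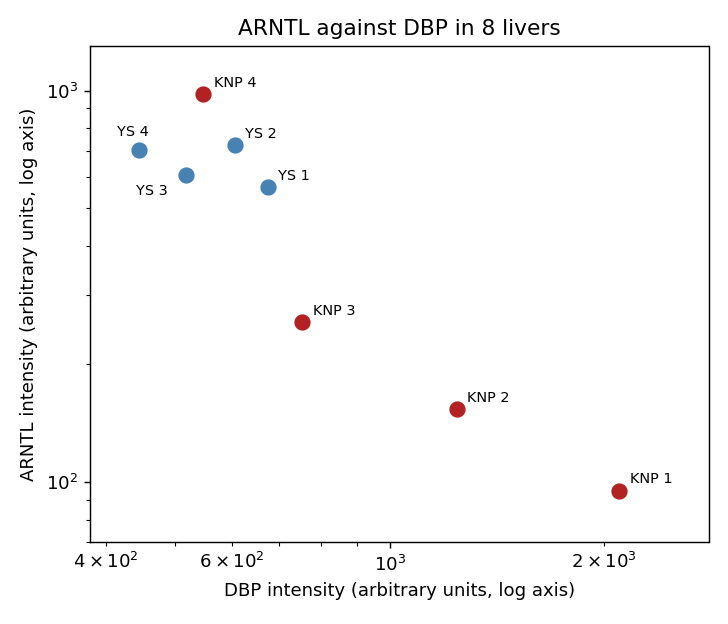
Intensity of ARNTL against DBP in the 8 livers (both axes logarithmic, arbitrary units; red KNP, blue YS). The KNP livers run from high DBP and low ARNTL to the reverse, and the YS livers sit together near KNP replicate 4; Pearson r is −0.93 on the log2 scale.

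PER1 was correlated with neither gene beyond the test's threshold. Its Pearson correlation was 0.51 with DBP (exact permutation p = 0.208, adjusted p = 0.312) and −0.36 with ARNTL (exact permutation p = 0.376, adjusted p = 0.376). Spearman's rho was 0.55 with DBP (exact permutation p = 0.171, adjusted p = 0.256) and −0.45 with ARNTL (exact permutation p = 0.267, adjusted p = 0.267). Without KNP replicates 1 and 2 the correlation with DBP was 0.80 (n = 6, exact permutation p = 0.0597) and that with ARNTL −0.31. The signs were those of the ARNTL and DBP pair, but neither correlation passed. With the mean of both PER1 probe sets the correlation with ARNTL turned to 0.0075.

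Signs of RNA quality moved with ARNTL and DBP. The ratio of the 3' to 5' control signals of a transcript rises as RNA gets shorter. For GAPDH it was 2.30, 2.59, 3.51 and 3.77 in KNP replicates 1 to 4 and 3.42, 3.47, 3.07 and 4.05 in YS replicates 1 to 4. The KNP livers with the lowest ratio were thus the ones with the lowest ARNTL and the highest DBP. Over the 8 arrays the log2 GAPDH ratio had a Pearson correlation of 0.86 with ARNTL (exact permutation p = 0.00920) and of −0.91 with DBP (exact permutation p = 0.00446). Both had an adjusted p of 0.0524 over 12 relations computed between array measures and members. Spearman's rho was 0.74 with ARNTL and −0.69 with DBP (adjusted exact permutation p = 0.167 for each). Without KNP replicates 1 and 2 the correlations were 0.27 and −0.36.

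For actin the ratio was 3.80, 2.68, 6.45 and 6.37 in KNP replicates 1 to 4 and 10.8, 8.39, 10.8 and 11.8 in YS replicates 1 to 4, without overlap between the breeds (exact permutation p = 0.0286, n = 4 per breed). Its log2 value had a Pearson correlation of 0.79 with ARNTL (exact permutation p = 0.0218) and of −0.83 with DBP (exact permutation p = 0.0149), with an adjusted p of 0.0524 for both. Spearman's rho was 0.45 and −0.74, with adjusted exact permutation p of 0.401 and 0.167. Without KNP replicates 1 and 2 the Pearson correlations were 0.21 and −0.52.

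With the GAPDH ratio taken out of both genes, the correlation of ARNTL and DBP was −0.72 and was no longer called (adjusted permutation p = 0.149). After the actin ratio it was −0.81 (adjusted permutation p = 0.0481). As a term beside breed, the GAPDH ratio left a breed difference of −0.63 for ARNTL and 0.39 for DBP. The actin ratio turned them to 0.31 and −0.27, none of them called by limma. Since all YS arrays had a higher actin ratio than all KNP arrays, this ratio and breed cannot be told apart. The part of RNA length in the ARNTL and DBP values was not tested beyond these fits. PER1 had correlations of −0.40 with the GAPDH ratio and −0.29 with the actin ratio (exact permutation p = 0.323 and 0.488, adjusted p = 0.431 and 0.488).

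**Figure D3:**
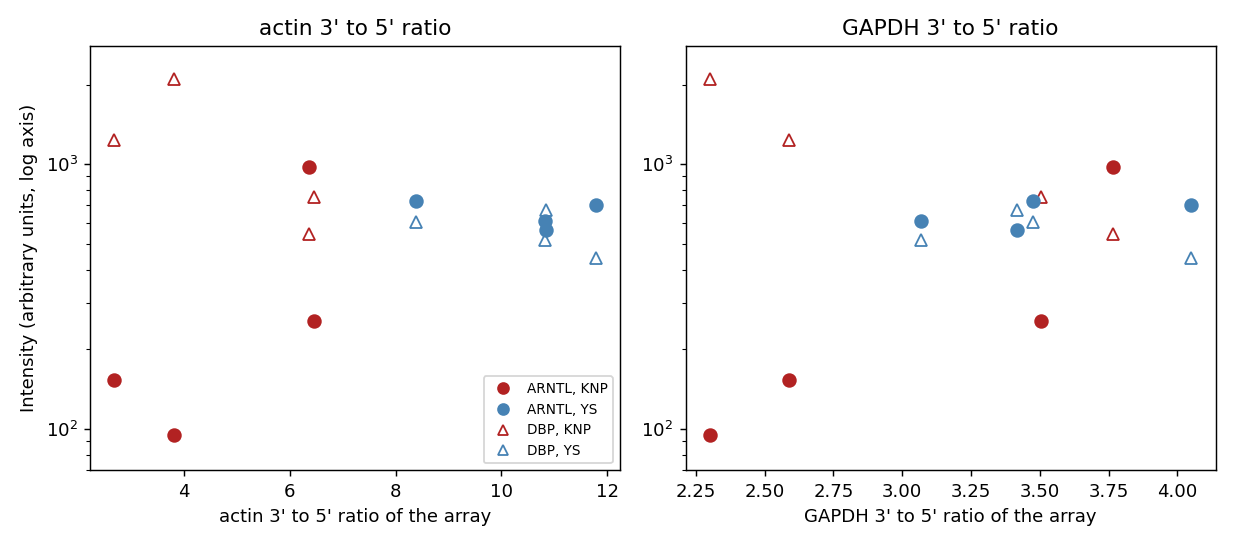
Intensity of ARNTL (filled circles) and DBP (open triangles) in the 8 livers (log axis, arbitrary units) against the 3' to 5' signal ratio of actin and of GAPDH on the same array (red KNP, blue YS). The KNP arrays with the lowest ratios, replicates 1 and 2, hold the lowest ARNTL and the highest DBP.

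Spiked hybridization controls, which are added after RNA extraction, ran in geometric mean from 3286 to 4833 in KNP and from 6499 to 8785 in YS (p = 0.0286 by exact permutation), so the hybridization level and breed cannot be told apart. Their log2 level had a Pearson correlation of −0.77 with DBP (exact permutation p = 0.0182, adjusted p = 0.0524 over the 12 relations) and of 0.76 with ARNTL (exact permutation p = 0.0326, adjusted p = 0.0651). Spearman's rho was −0.69 and 0.60 (adjusted exact permutation p = 0.167 and 0.259). Without the 2 farthest arrays, KNP replicate 1 and YS replicate 1, r was −0.80 with DBP (exact permutation p = 0.0236, n = 6) and 0.70 with ARNTL (exact permutation p = 0.149, n = 6). Median intensities of the arrays ran from 152 to 179, with a Pearson correlation of −0.67 and a rho of −0.86 with DBP (adjusted exact permutation p = 0.0988 and 0.129) and of 0.65 and 0.57 with ARNTL (adjusted exact permutation p = 0.133 and 0.259). Without YS replicates 3 and 4, the farthest, r was −0.56 and 0.69. The part of the hybridization level in the ARNTL and DBP values was not tested.

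Of 10 hepatocyte markers 9 had a probe set, each among the very brightest probe sets of the array, so the defining markers of liver were present. Their summed intensity was 327086 to 384123 in KNP and 531065 to 573367 in YS, without overlap. The log2 sum moved with the members, at a Pearson r of 0.74 with ARNTL (exact permutation p = 0.0552, adjusted p = 0.331 over 18 relations of marker sums) and of −0.75 with DBP (exact permutation p = 0.0124, adjusted p = 0.222). Spearman's rho was 0.60 and −0.88 (adjusted exact permutation p = 0.476 and 0.130), and r without KNP replicates 1 and 2 was 0.40 and −0.51. Summed markers of macrophages (4 of 6 genes with a probe set, 6564 to 9349 in KNP and 4304 to 8011 in YS), endothelium (5 of 5, 2948 to 3778 and 2493 to 3957), stellate cells (4 of 5, 1987 to 7960.1 and 3928 to 6633), T and NK cells (4 of 5, 568 to 1408 and 534 to 794) and red cells (2 of 4, 1400 to 3175 and 1709 to 4373) overlapped between the breeds. Bile duct markers (3 of 4, 273 to 518 and 177 to 340.3) overlapped as well, with SOX9 close to 0 at 3.80 to 14.3. Their sum had a Pearson r of 0.73 with DBP (exact permutation p = 0.0354, adjusted p = 0.318; rho 0.67, adjusted p = 0.374) and of −0.57 with ARNTL (adjusted p = 0.522; rho −0.52, adjusted p = 0.481). Without YS replicate 4 and KNP replicate 2, the farthest, r was 0.61 and −0.38. The muscle and fat markers with a probe set, 2 each, were all too dim to be tested. The muscle sums overlapped, but those of fat did not, at 47.2 to 116 in KNP and 184 to 356 in YS. The fat sum had a Pearson r of 0.59 with ARNTL and −0.52 with DBP (adjusted exact permutation p = 0.522 and 0.527), a rho of 0.48 and −0.67 (adjusted p = 0.481 and 0.374), and r of 0.65 and −0.71 without KNP replicate 3 and YS replicate 3. None of the 18 relations passed after adjustment, and the part of these cell types in the member results was not tested.

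The wider clock machinery was described with a list of 30 genes, of which 9 had a probe set and were tested. None of the 9 rose or fell (limma, lowest adjusted p = 0.315), and 1 had an unadjusted p under 0.05, against 15.1% of all probe sets tested. Their median log2 difference was 0.19, against −0.0086 over all probe sets tested, with 6 higher and 3 lower in KNP by their means.

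CRY2, a repressor of ARNTL and CLOCK, had intensities of 466, 338, 209 and 69.5 in KNP replicates 1 to 4 and of 154, 243, 163 and 231 in YS replicates 1 to 4. Within KNP it thus ran in the order of DBP and against ARNTL, from the liver with the lowest ARNTL to the one with the highest. Its breed difference was 0.19 (SE 0.45, limma adjusted p = 0.876). The Pearson correlation with ARNTL was −0.80 (exact permutation p = 0.0112, adjusted p = 0.472 over 74 relations of list genes with ARNTL or DBP), Spearman's rho was −0.60 (adjusted exact permutation p = 0.890), and r was −0.47 without KNP replicates 1 and 2. With DBP the Pearson correlation was 0.72 (adjusted exact permutation p = 0.715).

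USP2, a deubiquitinase with clock-driven expression known in rodent liver, had intensities of 669.9, 1683 and 419 in KNP replicates 1 to 3, 84.4 in KNP replicate 4, and 440.3, 466, 356 and 221 in YS replicates 1 to 4. KNP replicate 4, the liver with the highest ARNTL, was lowest in both CRY2 and USP2. Both of these values were under 97.8, the mean intensity at which a probe set was bright enough to be tested. The correlation of USP2 with ARNTL was −0.76 (exact permutation p = 0.0191, adjusted p = 0.472), with Spearman's rho of −0.71 (adjusted exact permutation p = 0.710) and r of −0.60 without KNP replicates 1 and 2. The breed difference was 0.35 (SE 0.66, limma adjusted p = 0.844), and −0.27 without KNP replicate 2, the highest liver.

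NFIL3, a repressor that competes with DBP for the same sites, lay at 1088, 1825, 1636 and 2638 in KNP replicates 1 to 4 and at 2068, 1688, 1231 and 1215 in YS replicates 1 to 4. In KNP it was lowest in the liver with the highest DBP and highest in the one with the lowest, but over the 8 arrays its Pearson correlation with DBP was −0.26 (adjusted exact permutation p = 0.934). RORA, an activator of ARNTL, lay between 305 and 421 in all livers except KNP replicate 2, at 914. BHLHE40, which represses E-box genes, was likewise highest in KNP replicate 2, at 369.5 against 134 to 209 elsewhere. The breed differences were 0.18 for NFIL3, 0.41 for RORA and 0.23 for BHLHE40, none of them called by limma (adjusted p = 0.797, 0.542 and 0.745). Without KNP replicate 2 the difference of RORA was 0.090 and that of BHLHE40 −0.021, and without KNP replicate 4 that of NFIL3 was −0.029. A second BHLHE40 probe set, too dim to be tested, showed the opposite sign when fitted without the filter (−0.78, SE 0.34, limma adjusted p = 0.353).

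Among the kinases that mark PER and CRY proteins, CSNK1A1, a casein kinase, lay at 2238 ± 197 in KNP and 2794 ± 280 in YS (SD, n = 4 per breed), a log2 difference of −0.32 (SE 0.14, limma adjusted p = 0.315). No other tested gene of the list had breeds that did not overlap, against 9.68% of all probe sets. Its other probe sets showed −0.18 and 0.36. CSNK1D, the casein kinase that phosphorylates PER, lay at 707 ± 132 and 537 ± 78.7, a difference of 0.38 (SE 0.18, limma adjusted p = 0.345). The other tested CSNK1D probe sets showed 0.39 and −0.041. PRKAA1 and PRKAA2, the catalytic subunits of AMP-activated kinase, showed −0.043 and −0.11 (limma adjusted p = 0.950 and 0.844). The other tested PRKAA1 probe set showed 0.59 (limma adjusted p = 0.389).

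Genes known as outputs of the liver clock gave 12 tested members of a list of 20, of which none passed and 1 had an unadjusted p under 0.05 (15.1% over all probe sets). Their median log2 difference was −0.069, and in 2 of them, KLF10 and CYP7A1, the breeds did not overlap (9.68% over all probe sets). KLF10, a clock-controlled Krüppel-like factor, lay at 1944 ± 623 in KNP and 1281 ± 71.1 in YS (SD, n = 4 per breed; log2 0.55, SE 0.20, limma adjusted p = 0.229). All 4 KNP values, from 1555 to 2866, were above all YS values, from 1192 to 1344. The difference was 0.35 without KNP replicate 2, the highest liver, and 0.0076 with the actin ratio as a covariate. CYP7A1, the rate-limiting enzyme of bile acid synthesis, showed −1.88 (SE 0.91, limma adjusted p = 0.361), with KNP replicate 3 at 82.5 against 2752 to 2987 in the other KNP livers. Without that animal the difference was −0.66. POR, the electron donor of cytochromes P450, showed 0.31 (SE 0.22, limma adjusted p = 0.552).

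Glucocorticoid and fasting response genes, which include inputs to PER1, gave 16 tested members of a list of 19. None passed, 2 had an unadjusted p under 0.05 (15.1% over all probe sets), and the median log2 difference was 0.16. NR3C1, the glucocorticoid receptor, lay at 352 ± 56.9 in KNP and 238 ± 49.3 in YS (SD, n = 4 per breed; log2 0.54, SE 0.20, limma adjusted p = 0.249). KLF15, a glucocorticoid-induced regulator of amino acid breakdown, showed 0.52 (SE 0.22, limma adjusted p = 0.288) and CEBPB, a liver transcription factor, 0.34 (SE 0.17, limma adjusted p = 0.372). The brightest NR3C1 probe set followed DBP with a Pearson correlation of 0.79 (exact permutation p = 0.0141, adjusted p = 0.472), a rho of 0.95 (exact permutation p = 0.00114, adjusted p = 0.0844), and r of 0.95 without KNP replicates 1 and 2. The other tested NR3C1 probe set showed a breed difference of 0.43 (limma adjusted p = 0.480). It lay at 369, 368, 213 and 224 in KNP replicates 1 to 4 and at 151, 188, 297 and 218 in YS replicates 1 to 4. Like DBP it was highest in KNP replicates 1 and 2, but in YS it did not run in the order of DBP. Its correlation with DBP was not computed. The dim NR3C1 probe sets showed −0.11 and −0.049 when fitted without the filter.

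Over all 74 relations between list genes and ARNTL or DBP, 5 had an unadjusted Pearson p under 0.05 in the exact permutation test and none passed after adjustment (lowest adjusted p = 0.472).

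**Figure D4:**
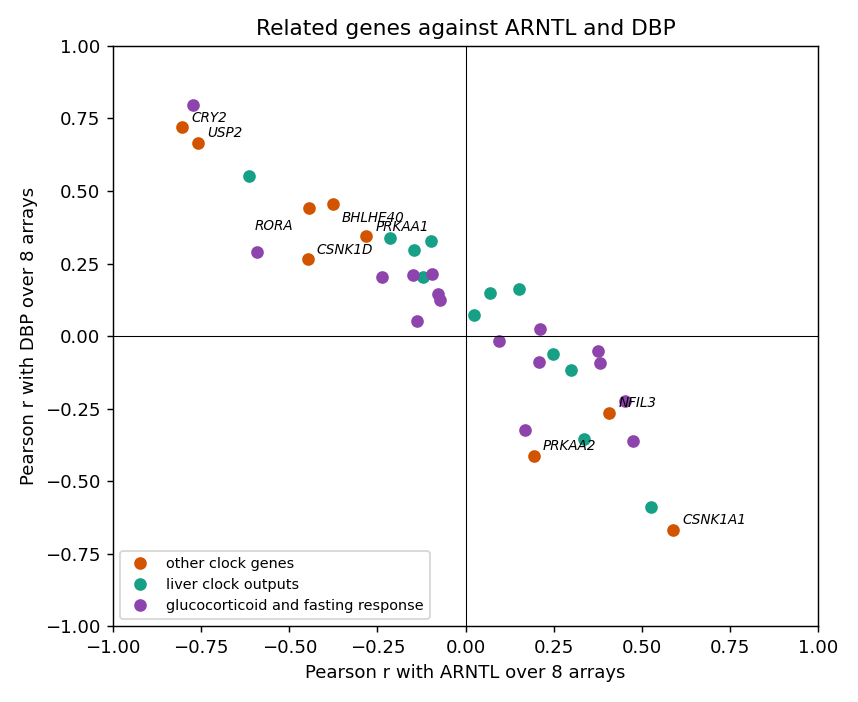
Pearson correlation over the 8 arrays with ARNTL (horizontal) and with DBP (vertical) for each tested gene of the lists; other clock genes are named. ARNTL and DBP are themselves correlated at −0.93, so the points must lie along the falling diagonal. CRY2 and USP2 lie at its upper left end and CSNK1A1 at its lower right. The brightest probe set of NR3C1, of the glucocorticoid and fasting list, lies at the upper left as well (−0.77 with ARNTL, 0.79 with DBP).

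Genes whose levels followed ARNTL and DBP most closely over the 8 arrays were looked up among the 5422 other genes with a tested probe set, as a description. For ARNTL they were SERPING1, the C1 inhibitor, with a Pearson r of 0.97, then DDX50, an RNA helicase (0.95), FOXN3, a forkhead factor (0.95), and SIRT2, a deacetylase (0.94). SERPING1 had intensities of 27875, 26975, 32695 and 39059 in KNP replicates 1 to 4 and stayed between 36866 and 37752 in YS. As with ARNTL, KNP replicate 4 was highest and KNP replicates 1 and 2 were the lowest. FOXN3 went from 3775 to 7066 in KNP and from 5482 to 5674 in YS. The most opposed were PSMB6, a proteasome subunit (−0.97), and ZNF207, a spindle protein (−0.94). PSMB6 lay at 3748 in KNP replicate 1 and at 1842 in KNP replicate 4, with 2219 to 2433 in YS.

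For DBP the closest were FKBP4, a co-chaperone of steroid receptors (0.95), NDUFB8, a subunit of respiratory complex I (0.92), TRAPPC5, of a vesicle tethering complex (0.91), and PPP1R2, an inhibitor of protein phosphatase 1 (0.91). UBE4A, a ubiquitin ligase (−0.97), and DHX30, an RNA helicase (−0.96), were the most opposed. With breed means taken out, the 12 correlations kept their sign and lay between 0.88 and 0.97 in size. These genes were picked by their correlations over the same arrays, so this is no separate check. None of the 12 genes differed between the breeds at an adjusted p under 0.05 with limma.

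**Figure D5:**
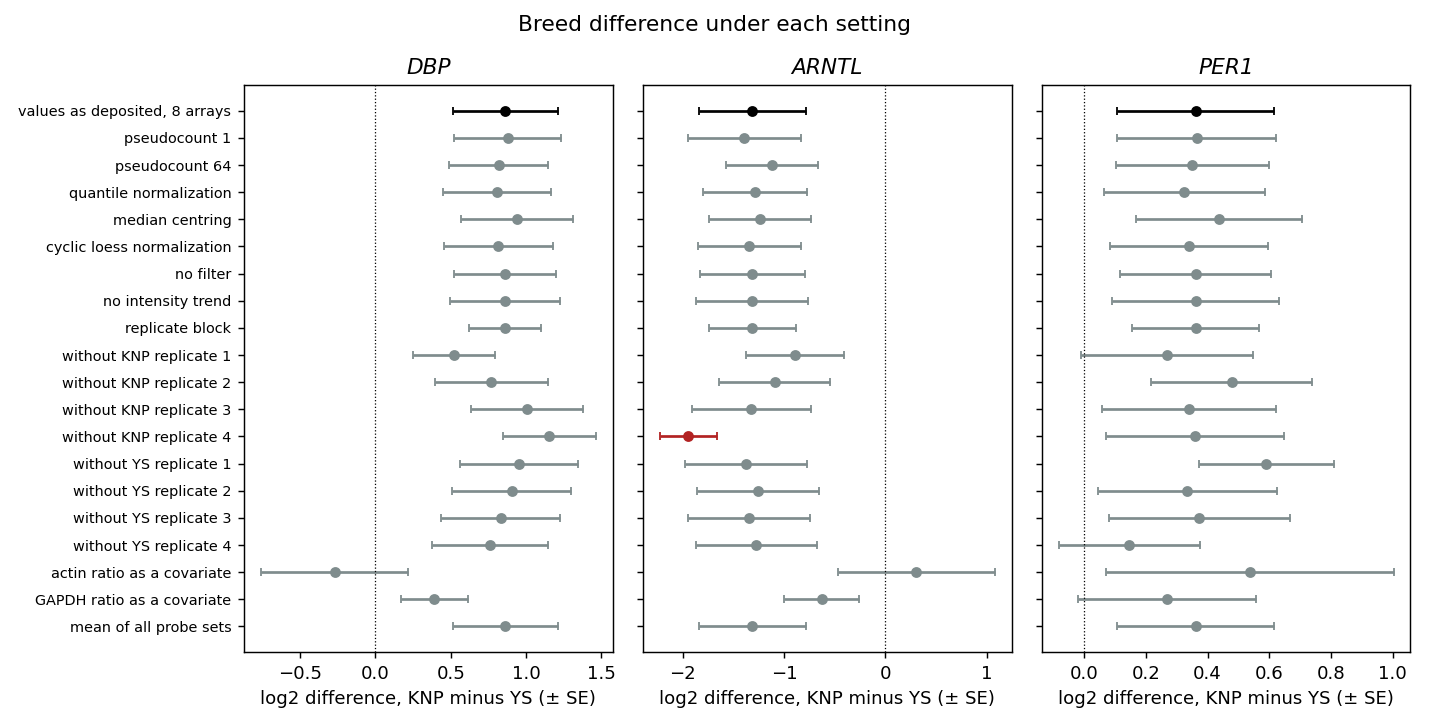
Log2 difference of KNP minus YS (± SE) for DBP, ARNTL and the bright PER1 probe set under each setting; black is the reported value, red an adjusted p under 0.05. The mean of all probe sets here takes those bright enough to be tested, which leaves PER1 with its bright one. ARNTL passed only without KNP replicate 4 (−1.94), and the signs of ARNTL and DBP turned only with the actin ratio as a covariate.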

How the data were processed

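Liver RNA of 8 pigs was measured with 1 array each. Each deposited value is the linear intensity of a probe set. The submitters' processing notes name GCOS 1.3, and the sources used here give neither a signal algorithm nor a background correction. The mean between the percentiles 2 and 98 was 499.8 on each array, so the authors' intensity values carry a scaling per array. From these, log2(intensity + 16) was computed with no further scaling, 124 controls and the lower 40% of probe sets by mean were left out, and 14399 were tested with limma 3.58.1 in R 4.3.3 (lmFit, eBayes with an intensity trend, two-sided, Benjamini-Hochberg adjustment over all 14399, threshold 0.05). Array annotation gave 10069 probe sets 1 symbol, 198 several and 13732 none. Where a gene had several probe sets, the brightest stands for it. Correlations had exact permutation tests over all 40320 pairings. Those of residuals and of deviations permute these and are approximate, as is the permutation test of spread.

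Named were all members, all 9 measured clock genes, the 3 genes with the smallest p of each list, and the 4 most like and 2 most opposed genes of the 2 members with the largest SD. List genes with another tested probe set at an unadjusted p under 0.05 were named as well. Members, lists and tests were chosen with earlier results of these data known. The covariates, the residual correlations, the correlations with array measures, marker sums and list genes, and the test of spread were chosen after seeing the data. Alternatives were pseudocounts of 1 and 64, quantile, median and cyclic loess scaling, no filter, no trend, a replicate block, each animal left out and the mean of a gene's probe sets (tested ones in fits, all in correlations of members). Over all tested probe sets, same-numbered animals did not deviate together (correlations −0.020 to 0.051). This cannot show whether the numbers pair the animals for the clock genes. DBP fell from replicate 1 to replicate 4 in both breeds. The replicate block lowered the SE of DBP from 0.35 to 0.24, of ARNTL from 0.53 to 0.43 and of PER1 from 0.25 to 0.21. A shared order of the animals was not tested. The fit was tested on simulated data with the same SD in both breeds, which does not cover unequal spread as in ARNTL. The number of arrays limits the precision.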

Additional observations from a re-analysis of the deposited data

Results flagged for a closer look

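In 82 groups of 4 animals (41 probe sets of members and related genes, each breed apart), 5 held an animal far from the other 3 by Dixon's criterion; chance flags about 1 in 20 groups. None was a member. CYP7A1 lay at 82.5 in KNP replicate 3 against 2752 to 2987 in the others. WEE1, a cell cycle kinase under clock control, lay at 151 in KNP replicate 3 against 224 to 231. PPARGC1A, a fasting coactivator, lay at 1056 in YS replicate 1 against 619 to 657. TFRC, the transferrin receptor, lay at 21.8 in YS replicate 2 against 141 to 174. TXNIP, the thioredoxin inhibitor, lay at 17959 in KNP replicate 2 against 10119 to 10623.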

How the results depend on the processing

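The count of members called was 0 in all fits except those that left out 1 animal, where it ran from 0 to 1 (ARNTL without KNP replicate 4). With the replicate block DBP showed 0.86 (adjusted p = 0.182), ARNTL −1.31 (0.245) and PER1 0.36 (0.470), and the block changed no call of these 3; over all probe sets it left 8 calls of 149. After quantile normalization DBP showed 0.81, ARNTL −1.29 and PER1 0.32; with pseudocounts of 1 and 64 ARNTL showed −1.39 and −1.12. The number of pairs of members called correlated was 1, and 0 with the GAPDH ratio taken out. The 3 lists of related genes had 0 calls throughout. With the actin ratio as a covariate the sign turned for DBP (−0.27), ARNTL (0.31), RORA (−0.48), BHLHE40 (−0.71), USP2 (−2.39) and CRY2 (−1.26), and with the GAPDH ratio for USP2 (−0.45) and CRY2 (−0.29); none of these was called. PRKAA1 turned to 0.033 with median centring and 0.27 with the mean of its probe sets, and the correlation of ARNTL and PER1 to 0.0075 with the mean of the PER1 probe sets. With 1 animal left out, BHLHE40 ran from −0.021 to 0.43, NFIL3 from −0.029 to 0.39, PRKAA2 from −0.21 to 0.0050, USP2 from −0.27 to 1.10, CRY2 from −0.15 to 0.69 and PRKAA1 from −0.15 to 0.12. The cause of these turns was not tested. Over all probe sets, calls numbered 13 after quantile normalization, 95 after median centring, 14 after cyclic loess, 35 without the filter and 13 without the intensity trend, and 8 to 117 with 1 animal left out. Signal over background limits the dim PER1 probe set and ARNTL in KNP replicate 1. The same limit holds for CRY2 and USP2 in KNP replicate 4 (69.5 and 84.4) and CYP7A1 in KNP replicate 3 (82.5). It also holds for TFRC in KNP replicate 3 and YS replicate 2 (10.6 and 21.8). All of these values were under 97.8, the mean intensity at which a probe set was bright enough to be tested.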
